A study of Mus musculus with 16 samples.

Results

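Nitric oxide (NO) signalling from enteric nerves to the muscle of the colon was followed through 9 genes chosen by name out of the 56748 genes in the count table. They were the 3 NO synthases Nos1, Nos2 and Nos3, the Nos1 adaptor Nos1ap, the soluble guanylate cyclase subunits Gucy1a1 and Gucy1b1, the cGMP-dependent kinase Prkg1, its substrate Irag1 and the phosphodiesterase Pde5a. All 9 were found in the table and all 9 passed the filter on low counts in every comparison. RNA came from the longitudinal muscle and myenteric plexus (LMMP), a microdissected sheet of outer muscle with its attached ganglia, of Ednrb-/- mice, a model of Hirschsprung disease (HSCR), and of Ednrb+/+ (WT) littermates. In the Ednrb-/- mouse a disrupted gene for the endothelin B receptor in all tissues leaves the distal colon without ganglia. The mice were 2 to 4 weeks old, of a mixed C57BL6/J and 129Sv background and of both sexes, and no treatment was named for any group. The 4 groups were WT proximal, HSCR proximal, WT distal and HSCR distal colon, with 4 libraries each. A proximal and a distal library of the same number are not stated to come from the same mouse. The design asks where the transmitter gene of the nerve and the genes that answer it in the muscle differ with genotype and with colon segment.

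NO is the main inhibitory transmitter of enteric motor neurons. It is made by neuronal NO synthase (Nos1) and binds the haem of soluble guanylate cyclase, a dimer of the Gucy1a1 and Gucy1b1 products, in smooth muscle cells, interstitial cells of Cajal and Pdgfra-positive cells. The cyclase makes cGMP, which activates the kinase PRKG1, and PRKG1 acts on IRAG1 to hold back calcium release and relax the muscle until PDE5A breaks the cGMP down. Nos3 is the synthase of endothelium and Nos2 the inducible synthase of macrophages and epithelium.

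The libraries held between 21384372 and 45831881 counts, and mitochondrial genes took between 4.32% and 49.8% of them. This share was 49.8%, 17.8%, 7.3% and 34.6% in WT proximal libraries 1 to 4. In HSCR proximal libraries it was 5.56%, 6.68%, 6.34% and 20.1%. It lay between 4.32% and 23.7% in WT distal and between 5.93% and 11.3% in HSCR distal libraries. What these differences reflect was not tested. Levels are CPM, counts scaled to one fixed library total after TMM normalization, and levels of different genes are compared only as CPM per kb of gene length. Ednrb, the disrupted gene, lay between 33.8 and 67.1 CPM in WT proximal and between 7.84 and 37.4 CPM in HSCR proximal libraries. Distal Ednrb lay between 11.8 and 43.0 CPM in WT libraries, at 94.8 CPM in the library labelled HSCR distal 1 and between 5.43 and 9.48 CPM in the other 3 HSCR libraries. HSCR proximal 3 and 4 lay inside the range of WT proximal libraries, and the level in the library labelled HSCR distal 1 was the highest of all 16 and goes against its label. Whether that library is labelled correctly cannot be told from these data, and each distal comparison of genotypes below rests on its label as given. Counts are per gene, so that reads from inside and outside the disrupted part of Ednrb cannot be told apart. The summed level of 10 pan-neuronal genes (Elavl4, Uchl1, Tubb3 and Snap25 among them) ran from 641.2 to 3038 CPM in WT proximal, from 58.8 to 919.4 in HSCR proximal, from 131.5 to 1842 in WT distal and from 18.24 to 890.0 in HSCR distal libraries. Library names are of 1 kind for libraries 1 and 2 of all groups, of another for all distal libraries 3 and 4 and HSCR proximal 3, and of yet another for WT proximal 3 and 4 and HSCR proximal 4, and what the kinds stand for is not given in the sources used here. The titles of 8 libraries say distal where their tissue entries say proximal, and the titles were followed. The library labelled HSCR distal 1 was the one at 890.0 CPM and WT distal 1 the one at 131.5 CPM, so that both stood apart from their groups in neuronal RNA. HSCR proximal 2 had the lowest summed level of 10 smooth muscle genes, at 5039 CPM against 28010 to 101900 CPM in the other 15 libraries, and the highest summed level of 8 epithelial genes, at 11570 CPM. In bulk RNA, fewer cells of a type and less RNA per cell cannot be told apart.

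By the median over 16 libraries, 4 of the 5 genes of the muscle side ranked above Nos1. The median level per kb was 36.2 CPM per kb for Irag1, 34.5 for Pde5a, 31.5 for Gucy1b1, 22.4 for Gucy1a1, 7.58 for Nos1, 5.54 for Prkg1, 1.16 for Nos3, 0.404 for Nos1ap and 0.277 for Nos2. Irag1 exceeded Pde5a in 10 of 16 libraries, Pde5a exceeded Gucy1b1 in 9, Gucy1a1 exceeded Nos1 in 10, Nos1 exceeded Prkg1 in 10 and Nos1ap exceeded Nos2 in 9, so that these neighbours in the order were not separated beyond the spread of the libraries. In WT proximal 3, Nos1 was the highest of the 9 members, at 54.5 CPM per kb. Gucy1b1 exceeded Gucy1a1 in 13 of 16 libraries, and Prkg1 exceeded Nos3 in 15. Nos1 was by far the most variable member in CPM, with a 566-fold range over the 16 libraries and an SD of 2.88 on the log2 scale. The other 8 members ranged between 5.72-fold for Pde5a and 21.04-fold for Irag1.

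**Figure D1:**
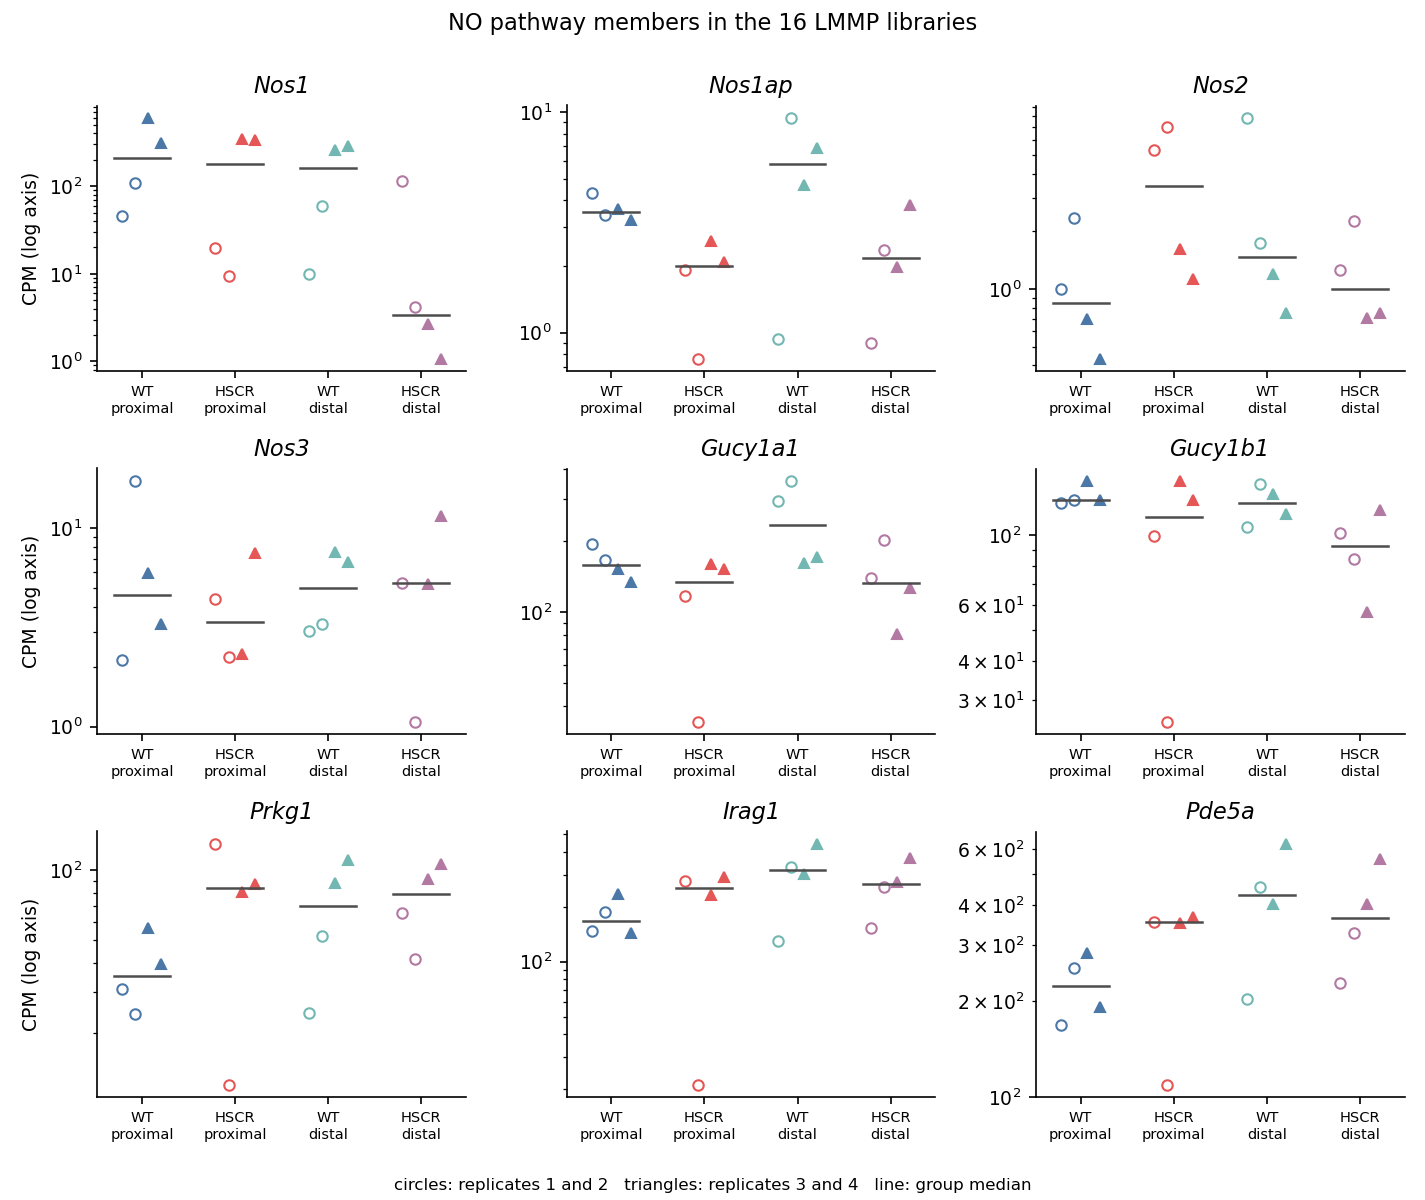
CPM of the 9 NO pathway genes on log axes in each of the 16 libraries, by group; circles are replicates 1 and 2, triangles replicates 3 and 4, and lines are group medians. Nos1 covers the widest range, from 1.07 to 607.3 CPM, and HSCR proximal library 2 is the lowest library for Nos1ap, both cyclase subunits, Prkg1, Irag1 and Pde5a.

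Nos1 lies on chromosome 5 (mm39, 117919097 to 118096905, plus strand). In the WT proximal colon it was at 45.2, 109.1, 607.3 and 312.0 CPM in libraries 1 to 4, and in the HSCR proximal colon at 19.9, 9.51, 343.8 and 334.4 CPM. Distal libraries held 9.92, 59.9, 259.5 and 290.2 CPM in WT and 115.7, 4.16, 2.68 and 1.07 CPM in HSCR. HSCR proximal libraries 1 and 2 lay below all WT proximal libraries while libraries 3 and 4 lay inside their range, and 3 of the 4 HSCR distal libraries lay below every WT distal library, with library 1 inside the WT range. The log2 fold change of HSCR against WT was -0.61 ± 1.14 (SE) in the proximal colon, with an adjusted p of 0.926 by edgeR's quasi-likelihood test, and -2.25 ± 1.53 in the distal colon, with an adjusted p of 1.00 by the same test. Neither passed the threshold. The difference in mean log2 CPM was -1.36 in the proximal colon (exact permutation p = 0.429, unadjusted). In the distal colon it was -3.74 (exact permutation p = 0.0857, unadjusted). Without WT proximal 3 the proximal log2 fold change was 0.15. Without the library labelled HSCR distal 1 the distal log2 fold change was -5.86 ± 1.26 (edgeR adjusted p = 0.813), and without both that library and WT distal 1 it was -6.28 ± 0.85 (edgeR adjusted p = 0.156), and the leaving out of both was chosen after seeing the data. Taken apart by library number, the mean log2 CPM of HSCR minus that of WT in the distal colon was -0.15 for libraries 1 and 2 and -7.32 for libraries 3 and 4. In the proximal colon these differences were -2.35 and -0.36.

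Nos1 followed the neuronal RNA of the library. Over the 16 libraries its log2 CPM had a Pearson r of 0.958 and a Spearman rho of 0.874 with the mean log2 CPM of the 10 pan-neuronal genes, and r was 0.926 without the 2 libraries farthest from the median of that list. With the other lists r was 0.776 for 5 enteric glia genes, 0.303 for smooth muscle and -0.496 for epithelium. The 5 genes whose log2 CPM was most like that of Nos1, among 18619 genes that passed the filter, were Chrna3 (r = 0.973), which encodes a ganglionic nicotinic receptor subunit, Elavl4 (0.969), an RNA-binding protein of neurons that is also in the pan-neuronal list, Crmp1 (0.966), a protein of the neuronal cytoskeleton, Ngfr (0.966), the p75 neurotrophin receptor of neural crest cells, and Snap91 (0.966), an adaptor of synaptic vesicle recycling. The libraries share their sequencing depth and cell makeup across all genes, and these correlations are descriptions over 16 libraries of 4 groups.

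**Figure D2:**
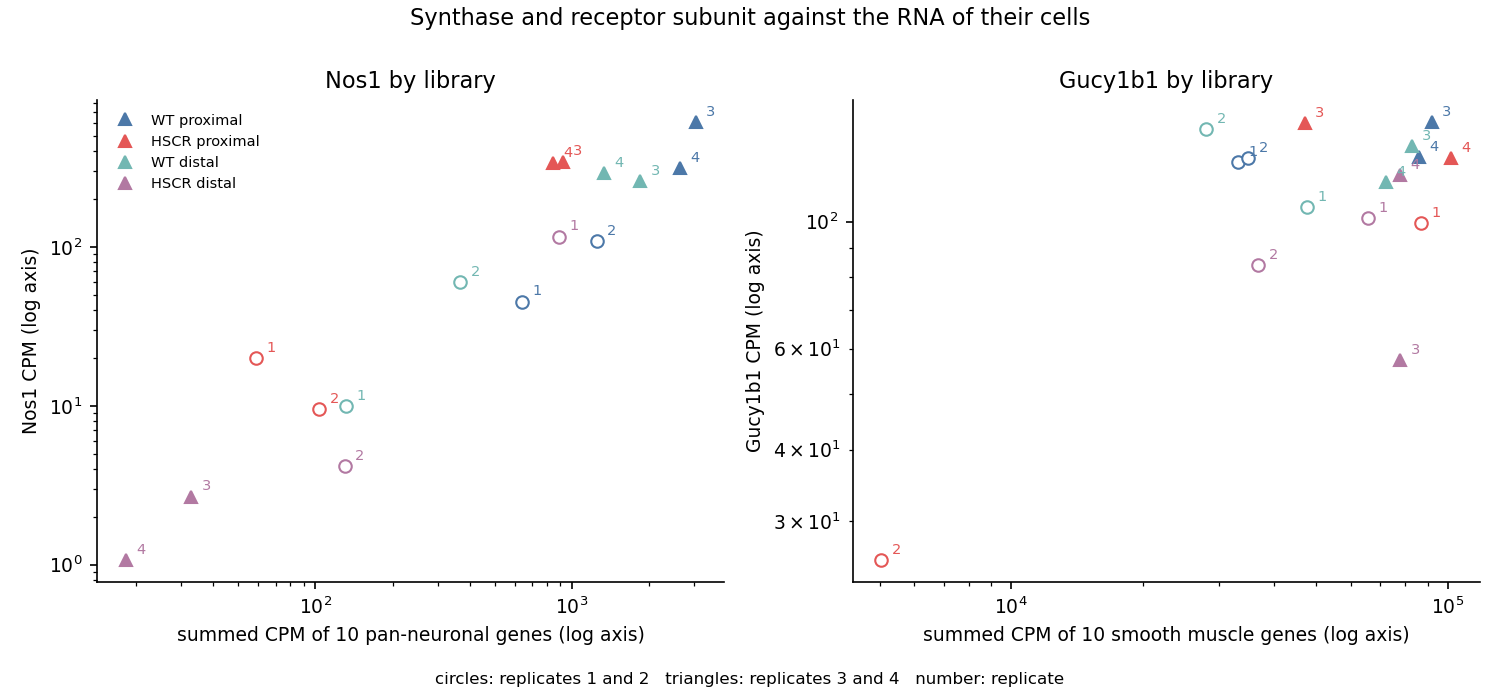
Left, Nos1 CPM against the summed CPM of 10 pan-neuronal genes; right, Gucy1b1 CPM against the summed CPM of 10 smooth muscle genes, 1 point per library on log axes with its replicate number. Nos1 rises with the neuronal genes over the whole range (r = 0.958 on mean log2 CPM), whereas Gucy1b1 stays between 57.3 and 149.0 CPM in 15 libraries and is at 25.7 CPM in HSCR proximal 2, which has the least smooth muscle RNA.

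Set against the pan-neuronal genes of the same library, Nos1 had a higher mean in HSCR than in WT proximal colon, without passing the test. Its log2 CPM minus the mean log2 CPM of the 10 genes was -0.03, 0.05, 1.31 and 0.62 in WT and 2.32, 1.05, 2.29 and 2.44 in HSCR proximal libraries. HSCR libraries 1, 3 and 4 lay above all WT libraries, and HSCR library 2, at 1.05, lay below WT library 3. The means were 0.49 ± 0.62 (SD, n = 4) in WT and 2.02 ± 0.65 (SD, n = 4) in HSCR, a difference of 1.54 or 2.90-fold. An exact two-sided permutation test gave p = 0.0571, or 0.457 adjusted over the 16 tests of this kind, and the smallest p that 4 against 4 libraries allow is 0.0286. The difference did not pass the threshold. It was 1.68 for libraries 1 and 2 and 1.40 for libraries 3 and 4, between 1.36 and 1.86 with each library left out, and positive against each of the 9 neuronal genes set against it alone, from 0.74 against Tubb3 to 3.12 against Elavl3, which had no count in HSCR proximal 2. The distal relative level was 1.11 ± 0.25 (SD, n = 4) in WT and 0.52 ± 0.71 in HSCR, a difference of -0.58 with an exact permutation p of 0.2, and it was positive against 2 of the 9 neuronal genes taken alone. Elavl3 had no count in WT distal 1 and Syt1 none in HSCR distal 4. The relative levels there, 1.14 and 1.27, therefore depend in part on the prior count of the log2 CPM.

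**Figure D3:**
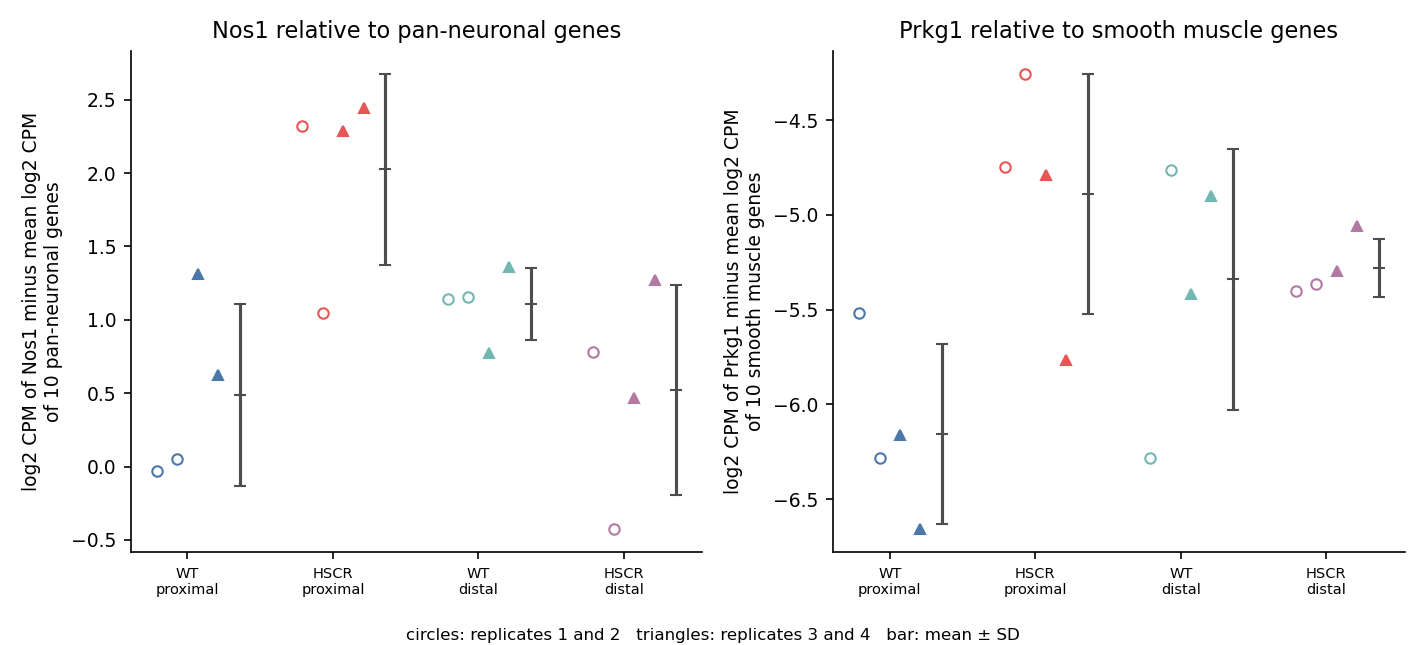
Log2 CPM of Nos1 minus the mean log2 CPM of 10 pan-neuronal genes (left) and of Prkg1 minus the mean of 10 smooth muscle genes (right), 1 point per library, with the group mean ± SD beside the points. In both panels 3 of the 4 HSCR proximal libraries lie above all 4 WT proximal libraries, and the differences of 1.54 and 1.27 have exact permutation p-values of 0.0571 each.

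Nos1ap (chromosome 1, mm39, 170130237 to 170417430, minus strand) encodes an adaptor that binds neuronal NO synthase. It was at 4.304, 3.41, 3.65 and 3.24 CPM in WT proximal libraries and at 1.92, 0.761, 2.61 and 2.08 CPM in HSCR proximal libraries. Every HSCR library lay below every WT library, the only member whose genotypes did not overlap in a segment. Of the 16664 genes tested in the proximal colon, 4.78% did not overlap between the genotypes, and 2.83% did not overlap with HSCR lower, while in the distal colon 0 of 9 members were without overlap, against 1.83% of 17059 genes. Its log2 fold change was -1.01 ± 0.53 (SE), with an unadjusted p of 0.0911 and an adjusted p of 0.758 by edgeR. The exact permutation test gave the smallest p possible, 0.0286, unadjusted. The lack of overlap fixes that p, so that it adds nothing to the overlap. The difference in mean log2 CPM was -1.65 for libraries 1 and 2 and -0.56 for libraries 3 and 4. The 5 enteric glia genes also did not overlap between the genotypes there, with summed levels of 330.9 to 749.3 CPM in WT and 52.3 to 272.9 CPM in HSCR proximal libraries, and Nos1ap had an r of 0.429 with their mean log2 CPM over 16 libraries. Their part in the result was not tested. Distal Nos1ap was at 0.934, 9.46, 4.69 and 6.90 CPM in WT and at 0.894, 2.37, 1.98 and 3.79 CPM in HSCR, the groups overlapped through WT library 1, and the log2 fold change was -1.27 ± 0.73 (edgeR adjusted p = 1.00). Nos1ap did not follow the neuronal genes as Nos1 did (r = 0.348 over 16 libraries), and the genes most like it were Ccdc157 (r = 0.889), Rgs6 (0.883) and Bbs4 (0.881).

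Nos2 and Nos3 were low in all libraries. Nos2 (chromosome 11, mm39, 78811613 to 78851080, plus strand) was at 1.00, 2.35, 0.694 and 0.432 CPM in WT proximal and at 5.32, 7.02, 1.63 and 1.13 CPM in HSCR proximal libraries. Its distal values were 7.89, 1.74, 1.199 and 0.753 CPM in WT and 1.26, 2.26, 0.706 and 0.754 CPM in HSCR. The high values were HSCR proximal 1 and 2 and WT distal 1, which also had little neuronal RNA (58.8, 103.5 and 131.5 summed CPM). HSCR distal 2, 3 and 4 had little as well (130.3, 32.86 and 18.24 summed CPM), with Nos2 at 2.26, 0.706 and 0.754 CPM. Over 16 libraries the r of Nos2 with the pan-neuronal genes was -0.384. The genotypes overlapped in both segments. For Nos2 the log2 fold change was 1.74 ± 0.82 (SE) in the proximal colon (edgeR adjusted p = 0.751) and -1.22 ± 0.88 in the distal colon (edgeR adjusted p = 1.00), and without WT distal 1 the distal value was 0.02. The difference between the segments in the genotype effect was -3.005 ± 1.24 (edgeR unadjusted p = 0.0285, adjusted p = 1.00), and -1.73 without WT distal 1. Over 16 libraries Nos2 had an r of 0.496 with 6 macrophage genes and 0.582 with the epithelial genes, whose part in the result was not tested, and the genes most like it were Adprhl1 (r = 0.834), Myot (0.816) and Lck (0.812).

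Nos3 (chromosome 5, mm39, 24569808 to 24589472, plus strand) ranged from 2.15 to 17.3 CPM in WT proximal, from 2.25 to 7.45 in HSCR proximal, from 3.03 to 7.60 in WT distal and from 1.06 to 11.5 CPM in HSCR distal libraries. It had an r of 0.771 with 8 endothelial genes over the 16 libraries, and the gene most like it was Shb (r = 0.927), an adaptor protein, followed by Patz1 (0.904) and Csrnp2 (0.903). For Nos3 the log2 fold change was -0.81 ± 0.73 (SE) in the proximal colon (edgeR adjusted p = 0.832), which turned to 0.11 without WT proximal 2, the library at 17.3 CPM. Its distal value was 0.17 ± 0.67 (edgeR adjusted p = 1.00).

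The genes of the 2 cyclase subunits lie next to each other on chromosome 3, both on the minus strand, Gucy1a1 at 81999734 to 82053096 and Gucy1b1 at 81939313 to 81981996 (mm39). Their log2 CPM had an r of 0.791 over 16 libraries, whereas the r of Nos1 was 0.242 with Gucy1a1 and 0.542 with Gucy1b1. Without HSCR proximal 2, the r of the 2 subunits was 0.454 and that of Nos1 was 0.119 with Gucy1a1 and 0.673 with Gucy1b1, so that the order of these values rested on that library. The 250 bases before a listed start of the genes of the 2 subunits, which form 1 enzyme, are shown. Those before the listed start of Nos1, the synthase on the nerve side, stand beside them. These windows are from RefSeq (build GRCm38.p6, not the mm39 build of the count table). There 7 of the 9 members were matched, Irag1 under its older symbol Mrvi1. The first start listed for Gucy1a1 is used, on the coding strand 5′ to 3′, and capitals mark the GC box GGGCGG and the cAMP response core TGACG on either strand. No 2 marked motifs overlap.
Nos1, chr5:117866589-117866838, plus strand: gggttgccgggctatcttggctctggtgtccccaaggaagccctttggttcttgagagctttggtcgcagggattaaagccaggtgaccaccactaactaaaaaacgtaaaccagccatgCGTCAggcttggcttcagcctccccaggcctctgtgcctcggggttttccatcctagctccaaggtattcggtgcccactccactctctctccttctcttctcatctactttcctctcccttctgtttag
Gucy1a1, chr3:82145651-82145900, minus strand: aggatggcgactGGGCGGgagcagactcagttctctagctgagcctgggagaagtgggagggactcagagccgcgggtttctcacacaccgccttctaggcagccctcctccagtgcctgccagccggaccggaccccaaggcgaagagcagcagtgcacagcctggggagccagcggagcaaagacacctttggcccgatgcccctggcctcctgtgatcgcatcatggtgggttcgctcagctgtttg
Gucy1b1, chr3:82074712-82074961, minus strand: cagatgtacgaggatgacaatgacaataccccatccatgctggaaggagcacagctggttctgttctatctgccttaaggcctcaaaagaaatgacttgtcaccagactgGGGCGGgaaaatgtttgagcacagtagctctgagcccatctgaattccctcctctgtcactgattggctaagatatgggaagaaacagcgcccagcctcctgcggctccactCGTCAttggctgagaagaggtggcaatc
The Nos1 window held 1 response core and no GC box, the Gucy1a1 window 1 GC box and no response core, and the Gucy1b1 window 1 of each. Among 32851 mouse windows of the same length, 32.7% held the GC box and 17.8% the response core. The TATA box TATAAA, held by 12.4% of all windows, and the CArG box of smooth muscle promoters, held by 1.47%, were found in none of the 11 windows of the 7 matched members. A match or its absence describes these letters in these windows. Whether each listed start is the outermost start of its gene was not checked. A window, that of Nos1 among them, may therefore lie inside its gene, and the motif counts are not compared as those of promoters.

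Gucy1a1 was at 193.2, 164.9, 151.6 and 133.7 CPM in WT proximal and at 116.7, 34.5, 159.9 and 151.6 CPM in HSCR proximal libraries. Its distal levels were 294.4, 357.9, 160.4 and 171.0 CPM in WT and 138.9, 201.1, 80.8 and 126.4 CPM in HSCR. Among the distal libraries, 3 of the 4 of HSCR lay below all WT libraries, and HSCR library 2 lay inside the WT range. The log2 fold change was -0.84 ± 0.40 (SE) there, with an unadjusted p of 0.0657 and an adjusted p of 1.00 by edgeR, and in mean log2 CPM it was -0.96 for libraries 1 and 2 and -0.71 for libraries 3 and 4. In the proximal colon it was -0.50 ± 0.43 (edgeR adjusted p = 0.823), and -0.20 ± 0.22 without HSCR proximal 2. The genes most like Gucy1a1 were Fgf2 (r = 0.971), a growth factor, Zeb1 (0.944), a transcription factor of mesenchymal cells, and Wnk1 (0.941), a kinase.

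Gucy1b1, the subunit that carries the haem, was the steadiest member in WT mice, at 126.9, 129.2, 149.0 and 129.7 CPM in proximal and at 105.9, 145.0, 135.5 and 117.1 CPM in distal libraries. It was at 99.3, 25.7, 148.4 and 129.2 CPM in HSCR proximal and at 101.5, 84.1, 57.3 and 120.7 CPM in HSCR distal libraries. HSCR distal libraries 1, 2 and 3 lay below every WT library and library 4 inside their range. Its log2 fold change was -0.46 ± 0.29 (SE) in the distal colon (edgeR adjusted p = 1.00) and -0.43 ± 0.45 in the proximal colon (edgeR adjusted p = 0.857), and -0.11 ± 0.20 in the proximal colon without HSCR proximal 2. Most like Gucy1b1 were Cacng7 (r = 0.944), Lgi4 (0.934), which glia secrete, and Pitpnc1 (0.927), whose r without HSCR proximal 2 was 0.805, 0.754 and 0.797. Relative to the smooth muscle genes neither subunit passed the threshold between the genotypes. The distal differences were -1.05 for Gucy1a1 and -0.73 for Gucy1b1, with an exact permutation p of 0.2 for each.

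Prkg1 (chromosome 19, mm39, 30541889 to 31742433, minus strand) encodes the kinase that cGMP activates. It was at 30.9, 24.0, 56.5 and 39.5 CPM in WT proximal and at 130.4, 12.0, 81.0 and 87.3 CPM in HSCR proximal libraries. HSCR libraries 1, 3 and 4 lay above all WT libraries and library 2, the one with little smooth muscle RNA, below them. For Prkg1 the log2 fold change was 1.02 ± 0.59 (SE; edgeR adjusted p = 0.765), and 1.38 ± 0.32 (edgeR adjusted p = 0.454) without HSCR proximal 2. Relative to the 10 smooth muscle genes (Acta2, Actg2, Myh11, Des, Cnn1, Tagln, Smtn, Lmod1, Mylk and Synpo2), its log2 level was -5.52, -6.28, -6.16 and -6.66 in WT and -4.75, -4.25, -4.79 and -5.77 in HSCR proximal libraries. HSCR libraries 1, 2 and 3 lay above all WT libraries and library 4 below WT library 1. The means were -6.16 ± 0.47 (SD, n = 4) in WT and -4.89 ± 0.63 (SD, n = 4) in HSCR. This difference of 1.27, or 2.41-fold, had an exact permutation p of 0.0571 (0.457 adjusted over the 16 tests), was 1.40 for libraries 1 and 2 and 1.13 for libraries 3 and 4, and lay between 1.06 and 1.56 with each library left out. Distal Prkg1 was at 24.4, 52.1, 88.4 and 110.9 CPM in WT and at 65.7, 41.4, 92.2 and 106.7 CPM in HSCR. The groups overlapped there, with a log2 fold change of 0.16 ± 0.46 (edgeR adjusted p = 1.00) and a relative difference of 0.06 (exact permutation p = 0.914). The difference between the segments in the Prkg1 genotype effect was -0.85 ± 0.78 (edgeR adjusted p = 1.00).

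Irag1 and Pde5a varied together over the 16 libraries (r = 0.906), and with Prkg1 (0.821 and 0.839), and without HSCR proximal 2 these values were 0.971, 0.742 and 0.752. Irag1 (chromosome 7, mm39, 110467473 to 110581668, minus strand) was at 147.9, 187.6, 235.7 and 144.6 CPM in WT proximal and at 277.0, 21.2, 232.3 and 292.0 CPM in HSCR proximal libraries. Distal Irag1 was at 129.8, 332.6, 301.7 and 445.0 CPM in WT and at 152.3, 257.8, 273.1 and 371.5 CPM in HSCR. The groups overlapped in both segments, with log2 fold changes of 0.18 ± 0.63 (SE; edgeR adjusted p = 0.968) and -0.19 ± 0.39 (edgeR adjusted p = 1.00). Without HSCR proximal 2 the proximal value was 0.56 ± 0.24. Most like Irag1 were Ppp1r12b (r = 0.967), a subunit of muscle myosin phosphatase, Rbfox2 (0.961), a splicing regulator, and Hecw2 (0.957), a ubiquitin ligase, and without HSCR proximal 2 their r was 0.867, 0.863 and 0.825.

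Pde5a (chromosome 3, mm39, 122522596 to 122653023, plus strand) was at 167.9, 252.9, 283.5 and 191.6 CPM in WT proximal and at 353.7, 109.1, 351.5 and 365.7 CPM in HSCR proximal libraries. Its distal values were 202.3, 455.2, 402.6 and 623.5 CPM in WT and 227.1, 326.5, 402.2 and 557.8 CPM in HSCR. Again HSCR proximal 1, 3 and 4 lay above all WT proximal libraries and library 2 below them, whereas the distal groups overlapped throughout. The log2 fold change was 0.38 ± 0.39 (SE; edgeR adjusted p = 0.857) in the proximal colon, 0.66 ± 0.23 (edgeR adjusted p = 0.598) without HSCR proximal 2, and -0.15 ± 0.38 (edgeR adjusted p = 1.00) in the distal colon. Most like Pde5a were Rab11fip2 (r = 0.942), an adaptor of recycling endosomes, Zfyve1 (0.933) and Atrx (0.932), a chromatin remodeller. The Pearson r of Prkg1, Irag1 and Pde5a with the smooth muscle list was 0.784, 0.810 and 0.627 over 16 libraries. It was 0.684, 0.490 and 0.480 without HSCR proximal 2 and WT distal 2, the 2 libraries farthest from the list's median. That of Gucy1b1 went from 0.688 to 0.055, and that of Gucy1a1 from 0.378 to -0.605, so that the positive relation of the cyclase subunits with the smooth muscle genes rested on those libraries. With Pdgfra, P2ry1 and Kcnn3, which mark the Pdgfra-positive cells, r was 0.547 for Gucy1a1, 0.768 for Gucy1b1, 0.690 for Prkg1, 0.840 for Irag1 and 0.777 for Pde5a, and without HSCR proximal 2 and WT distal 4 it was -0.055, 0.484, 0.356, 0.432 and 0.491. With Kit, Ano1 and Etv1, which mark interstitial cells of Cajal, r lay between 0.144 for Gucy1a1 and 0.637 for Prkg1, and between -0.191 and 0.430 without HSCR proximal 2 and WT distal 1.

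**Figure D4:**
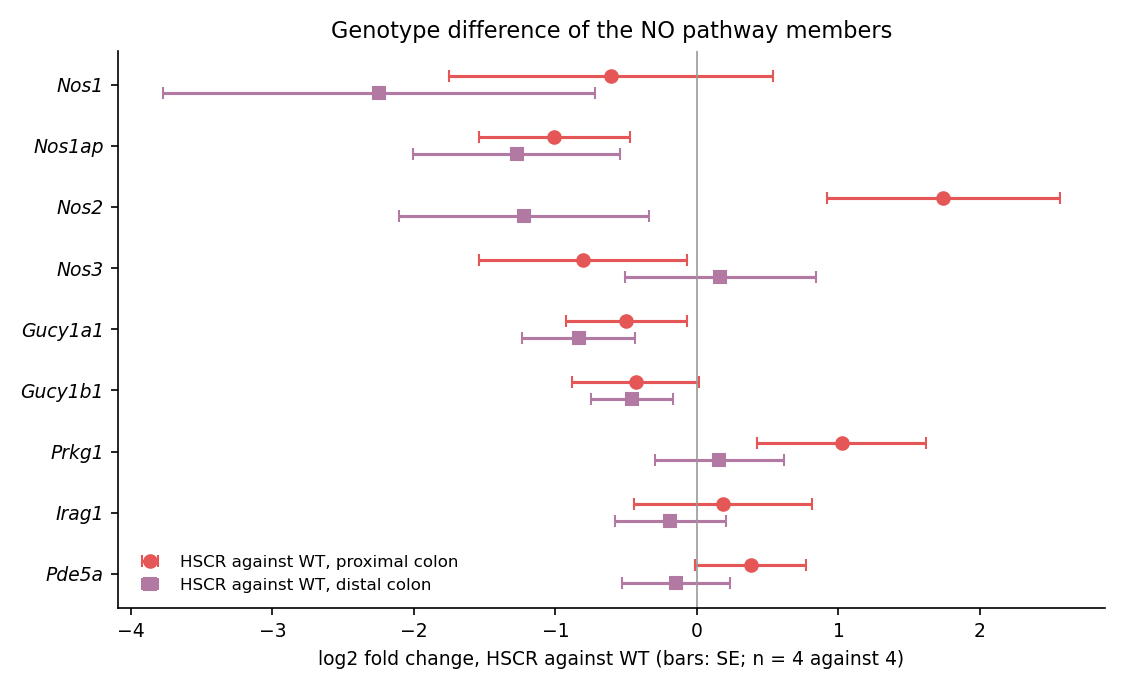
Log2 fold change of HSCR against WT for the 9 genes in the proximal (circles) and distal (squares) colon, with SE bars, n = 4 against 4 libraries. The Nos1 bars are the longest (SE 1.14 and 1.53), both cyclase subunits lie below 0 in both segments, and no gene passed an adjusted p of 0.05.

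Ratios of 2 members within a library do not depend on its scaling. Per kb, Gucy1a1 over Gucy1b1 lay between 0.573 and 0.858 in all 8 proximal libraries and between 0.590 and 1.57 in the distal ones, where the 3 highest values, 1.57, 1.39 and 1.35, belonged to WT distal 1, WT distal 2 and HSCR distal 2. Pde5a over Gucy1b1, the gene of cGMP breakdown over that of its synthesis, was 0.529, 0.782, 0.760 and 0.590 in WT proximal and 1.42, 1.70, 0.946 and 1.13 in HSCR proximal libraries. Every HSCR proximal library lay above every WT proximal library. Of the 16663 other genes tested there, 6.39% had a ratio to Gucy1b1 without overlap, 5.51% with every HSCR library higher. Irag1 over Prkg1 was 7.73, 12.6, 6.74 and 5.91 in WT proximal and 3.43, 2.85, 4.64 and 5.40 in HSCR proximal libraries, again without overlap, against 6.79% of the other genes for a ratio to Prkg1, 6.73% with every HSCR library lower. These were 2 of 4 ratios computed, described without a test. Both overlapped in the distal colon, with Pde5a over Gucy1b1 between 0.763 and 2.13 in WT and between 0.894 and 2.80 in HSCR libraries, and Irag1 over Prkg1 between 5.52 and 10.3 in WT and between 3.75 and 10.1 in HSCR libraries. Nos1 over Gucy1b1, transmitter synthase over receptor, ran from 0.125 to 1.44 in WT proximal, from 0.0705 to 0.912 in HSCR proximal, from 0.0330 to 0.873 in WT distal and from 0.00313 to 0.401 in HSCR distal libraries, the last group falling to 0.0174, 0.0165 and 0.00313 in libraries 2 to 4.

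**Figure D5:**
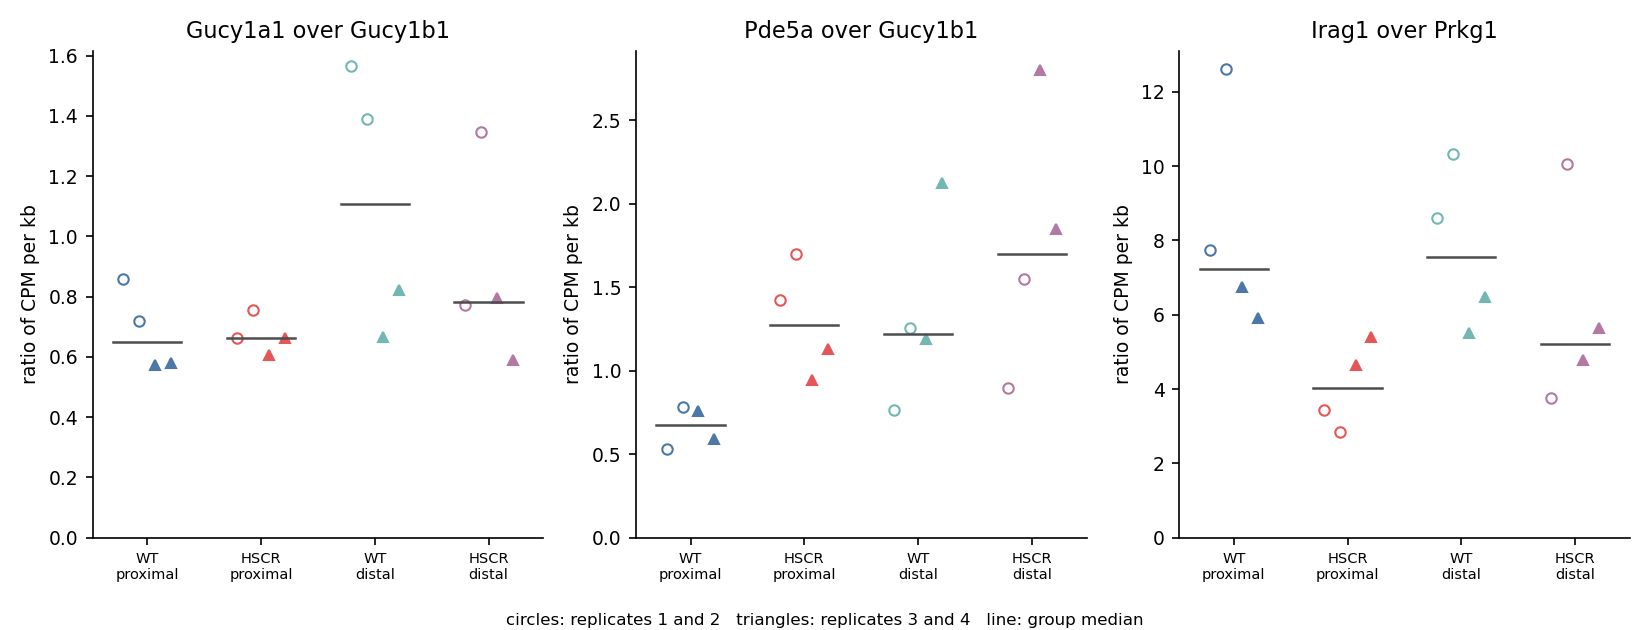
Ratios of CPM per kb within each library for Gucy1a1 over Gucy1b1, Pde5a over Gucy1b1 and Irag1 over Prkg1, with lines at group medians. In the proximal colon the HSCR libraries lie above the WT libraries for Pde5a over Gucy1b1 (0.946 to 1.70 against 0.529 to 0.782) and below them for Irag1 over Prkg1 (2.85 to 5.40 against 5.91 to 12.6).

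Over the whole set, 0 of 9 members passed an adjusted p of 0.05 in the proximal genotype comparison by edgeR's quasi-likelihood test, against 0% of 16664 genes, and 0 of 9 had an unadjusted p under 0.05, against 6.62%. In the distal comparison 0 of 9 passed the adjusted threshold, against 0% of 17059 genes, and 0 of 9 the unadjusted one, against 2.64%. The estimates lay below 0 for 5 of 9 members in the proximal and for 7 of 9 in the distal colon, against 46.8% and 46.1% of all genes, with medians of -0.43 and -0.46 against 0.043 for all genes in each. The comparisons share no library, though whether they share mice is not stated, and the members within each share all of theirs. DESeq2 called 0 of 9 members in both, against 1.14% and 0.129% of genes, and edgeR's likelihood ratio test 0 of 9, against 0.414% and 0.041%. With RUVr, the method named in the study's methods, with 4 factors removed, 6 of 9 members passed in the proximal colon (Nos1, Nos1ap, Gucy1a1 and Gucy1b1 lower, Nos2 and Prkg1 higher), against 20.8% of all genes, and 2 of 9 in the distal colon (Nos1 and Gucy1a1, both lower), against 9.05%. The calls on these members therefore depended on that step. Its 4 factors were estimated from the residuals of the same few libraries that were then tested. The RUVr counts here and below are for that reason not read as a result about the members.

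Between the segments of WT mice the muscle-side genes tended to lie higher in the distal colon, without passing the test. The log2 fold change of distal against proximal was 0.90 ± 0.33 (SE) for Pde5a, 0.85 ± 0.43 for Prkg1, 0.75 ± 0.35 for Irag1 and 0.64 ± 0.34 for Gucy1a1, against -0.08 ± 0.20 for Gucy1b1 and -0.81 ± 0.97 for Nos1. By edgeR 0 of 9 members passed the adjusted threshold, against 0.0181% of 16566 genes, and 1 of 9, Pde5a with an unadjusted p of 0.0232 (adjusted 0.906), passed the unadjusted one, against 5.23%, while 0 of 9 were without overlap between the segments, against 4.26%. DESeq2 and edgeR's likelihood ratio test called 0 of 9, against 0.29% and 0.193% of genes, and RUVr called 5 of 9, against 19.2%. Among libraries 3 and 4 of WT mice the kind of library name changed with the segment, so that the kind of name and the segment cannot be told apart there. In HSCR mice the same contrast was -2.50 ± 1.67 for Nos1 and between -0.16 and 0.33 for the 5 muscle-side genes, and by edgeR 0 of 9 members passed either threshold, against 0% adjusted and 1.49% unadjusted of 17086 genes, and 0 of 9 were without overlap, against 1.27%. DESeq2 and the likelihood ratio test called 0 of 9 there as well, against 0.0293% and 0% of genes, and RUVr called Nos1, against 2.1%. For the difference between the segments in the genotype effect, 0 of 9 members passed the adjusted threshold by edgeR, against 0% of 18619 genes, and 1, Nos2, the unadjusted one, against 1.44%, and DESeq2, the likelihood ratio test and RUVr called 0 of 9, against 0.0322%, 0.0161% and 1.68% of genes.

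The wider pathway was taken from 6 lists with 60 further genes. In the proximal colon 57 of them were tested, 28 with estimates lower and 29 higher in HSCR, with 3 lower and 1 higher at an unadjusted p under 0.05 by edgeR, against 4.13% and 2.48% of all genes, and 0 at an adjusted one. In the distal colon 55 were tested, 29 lower and 26 higher, with 1 lower and 1 higher at the unadjusted threshold, against 1.76% and 0.879% of all genes, and 0 at the adjusted one. Their median log2 fold changes were 0.046 and -0.079, against 0.043 over all genes in each segment. Among 15 cGMP kinases and muscle targets, which include Prkg1 and Irag1, 6 estimates were lower and 9 higher in the proximal colon, and among 10 tested genes of cGMP breakdown, which include Pde5a, 3 were lower and 7 higher. The 14 genes of substrate and cofactor supply split 7 and 7. Of 16 genes of NO synthesis, which are the 3 synthases, Nos1ap and the other binding partners, 11 were lower and 5 higher, of 6 tested guanylate cyclase and natriuretic peptide receptor genes, with both soluble subunits among them, 5 were lower and 1 higher, and of 5 tested genes of NO removal 1 was lower and 4 were higher. The distal counts of lower and higher genes were 7 and 8 for kinases and targets, 6 and 3 for cGMP breakdown, 8 and 5 for substrate and cofactor supply, 9 and 7 for NO synthesis, 3 and 3 for the cyclase and receptor genes and 3 and 2 for NO removal.

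Dlg4, which encodes PSD-95, the scaffold that holds neuronal NO synthase at the membrane, was the 1 pathway gene with an unadjusted p under 0.05 in both segments. The share of all genes that do so in both is not given here, so that this is not read as a result about Dlg4. Dlg4 was at 62.6, 67.1, 110.0 and 87.8 CPM in WT proximal and at 38.1, 14.1, 55.1 and 57.7 CPM in HSCR proximal libraries, without overlap. Of the 16664 genes tested there, 2.83% were without overlap and lower in HSCR. Distal Dlg4 was at 42.4, 70.7, 83.9 and 86.3 CPM in WT and at 50.9, 33.9, 26.6 and 31.9 CPM in HSCR, where WT library 1 and HSCR library 1 overlapped. Its log2 fold changes were -1.01 ± 0.42 (SE; edgeR unadjusted p = 0.0400, adjusted p = 0.747) and -0.96 ± 0.32 (edgeR unadjusted p = 0.0148, adjusted p = 1.00). The others at an unadjusted p under 0.05 by edgeR were, in the proximal colon, Hsp90aa1 (-0.79 ± 0.29), a chaperone of the synthases, Cygb (-0.71 ± 0.29), a globin that removes NO, and Pde9a (1.37 ± 0.60), a cGMP phosphodiesterase that was highest, at 340.0 CPM, in the epithelium-rich HSCR proximal 2. The distal one was Rgs2 (1.22 ± 0.44), a regulator of G protein signalling that PRKG1 acts on, at 66.5, 99.3, 149.3 and 124.0 CPM in WT and at 394.8, 130.5, 142.6 and 343.0 CPM in HSCR, where libraries 2 and 3 lay inside the WT range.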

How the data were processed

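Poly(A) RNA of 16 LMMP libraries was sequenced, and per the study's methods and the submitters' processing notes the authors used HISAT2 2.2.1 on mm39 for alignment and featureCounts 2.0.6 with GENCODE genes for counting. What they deposited are raw counts as whole numbers. FPKM columns and the authors' comparison columns (fold change, p-value) stand beside them and were left aside. The labels describe both a strand-specific and an unstranded kit and do not say which was counted, so reads of overlapping genes on opposite strands may be mixed.

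Groups and replicate numbers were read from the library titles. The tissue entries of the 8 distal libraries name the proximal colon, and the titles were followed. No 2 libraries were identical, and all carry the same batch entry. The methods give 4 mice per group, each library was taken as 1 mouse, and p-values measure the spread between these libraries.

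The whole table was tested with edgeR 4.0.16 (R 4.3.3): filterByExpr, TMM, a quasi-likelihood test of the 8 libraries of each comparison (all 16 for the difference between segments), and Benjamini-Hochberg adjustment over all genes tested. The SE of a log2 fold change was worked back from the test, as its absolute value over the square root of the F statistic. Log2 CPM used a prior count of 0.5, and two-sided exact permutation tests served for single values (scipy 1.17.1). The test was checked on simulated data with planted changes, and recovery was required only where the simulated spread was fixed at a low value. How much the test recovers at the spread of these libraries is not given here. Depth was not the limit for the abundant members (at least 743 counts in every library for Gucy1b1), while Nos2 had as few as 10 counts.

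All 9 members were named, with Ednrb, the pathway genes at an unadjusted p under 0.05 in a genotype comparison, and the genes of highest r for each member. The members, lists and comparisons were chosen with earlier results of these data known. Replicate numbers were checked for pairing by correlating same-numbered libraries' deviations from their group means: r was between -0.117 and 0.25 in the proximal and between -0.215 and 0.425 in the distal genotype comparison, between 0.0956 and 0.419 between WT segments and between -0.000112 and 0.358 between HSCR segments. In none of them was every pair over 0.1, so numbers were not taken as pairs, although libraries 1 and 2 share a number in their library names across all groups. The cut of 0.1 was a choice, and every same-number r between the WT segments was above 0. If a mouse gave both segments, the tests that span the segments took its libraries as separate mice. Alternatives were DESeq2 1.42.0, upper quartile scaling, no filter, no mitochondrial genes, a likelihood ratio test, RUVr with 4 factors, 1 model over all libraries, replicate number or the kind of library name (libraries 1 and 2 against 3 and 4) as a term, a prior count of 2, 9 of the 10 pan-neuronal markers taken singly (the other is not reported here), and libraries left out.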

Additional observations from a re-analysis of the deposited data

Results flagged for a closer look

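Of 36 sets of 4 libraries checked (9 genes in 4 groups), 4 held a library far from the other 3, where chance alone gives about 1.8. Nos1 was at 115.7 CPM in the library labelled HSCR distal 1 and between 1.07 and 4.16 CPM in the other 3 libraries of that group. Nos2 was at 7.89 CPM in WT distal 1 against 0.753 to 1.74 CPM in the others. Pde5a was at 109.1 CPM in HSCR proximal 2 against 351.5 to 365.7 CPM. Gucy1b1 was at 149.0 CPM in WT proximal 3 against 126.9 to 129.7 CPM, a small step within a tight group. The library labelled HSCR distal 1 also held 890.0 summed CPM of pan-neuronal genes against 18.24 to 130.3 in its group, and HSCR proximal 2 held 5039 summed CPM of smooth muscle genes against 47010 to 101900 in its group, and their part in these values was not tested.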

How the results depend on the processing

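No member passed the adjusted threshold in any comparison under upper quartile scaling, no filter, no mitochondrial genes, DESeq2, the likelihood ratio test, all libraries in 1 model, the replicate block, a term for libraries 1 and 2 against 3 and 4, an added fold limit or any library left out. RUVr with 4 factors gave 6, 2, 5 and 1 called members in the proximal, distal, WT segment and HSCR segment comparisons, with Nos1 at -1.198 and -3.80 in the genotype comparisons, among 3462, 1544, 3186 and 358 called genes. Estimates near 0 changed sign. Under RUVr the Irag1 proximal value was -0.24 and the Nos3 distal value -0.20, and under the replicate block they were -0.17 and -0.13. The block gave Nos1 at -1.31 proximal and -4.85 distal, and at -1.08 and -3.87 between the segments of WT and HSCR, and changed no call. With a term for libraries 1 and 2 against 3 and 4, the difference between the segments in the genotype effect was 0.41 for Nos1. It was -1.65 ± 2.00 (SE) in the main fit. Without WT distal 1 and the library labelled HSCR distal 1, chosen after seeing the data, distal Nos3 was -0.0174 and distal Prkg1 -0.098, with Prkg1 at -0.214 relative to smooth muscle. Without library 1 of the HSCR group compared, distal Pde5a was 0.0222, and proximal Gucy1a1 and Gucy1b1 relative to smooth muscle were 0.168 and 0.170. Against Elavl3 alone the proximal relative level of Nos1 was 3.12 (exact permutation p = 0.0286), and against Elavl4 and Syt1 alone the distal one was 0.96 and 0.51. The cause of these changes was not tested.

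With each library left out, Nos1 ranged from -1.15 to 0.15 in the proximal colon, the positive value being without WT proximal 3, and from -5.86 to -1.79 in the distal colon. Proximal Nos3 ranged from -1.28 to 0.11 and Irag1 from -0.0513 to 0.56. Distal Nos2 ranged from -1.71 to 0.02, Nos3 from -0.43 to 0.49, Prkg1 from -0.14 to 0.45, Irag1 from -0.46 to 0.0271 and Pde5a from -0.40 to 0.0734, and Nos3 between WT segments from -0.77 to 0.43. Relative to marker lists, proximal Nos3 ranged from -0.52 to 0.18, Gucy1a1 from -0.56 to 0.28, Gucy1b1 from -0.49 to 0.19 and Irag1 from -0.0376 to 0.47, and distal Nos3 from -0.59 to 0.0148 and Prkg1 from -0.25 to 0.25. With 4 libraries a group, an SE of 1.14 for Nos1 in the proximal colon leaves changes of a few fold undetectable, and the low counts of Nos2 limit it further.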
